A study of Mus musculus with 85 samples.

Results

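Mid 2-cell mouse embryos, collected 42 h after the hCG injection that times ovulation, were compared with early 2-cell embryos collected at 34 h. The comparison used the 4 mid 2-cell and 3 early 2-cell libraries of the standard medium, which are 7 of the 85 libraries of the series and were taken by their labels. All 7 libraries came from wild type preimplantation embryos of B6C3F1/J, a hybrid mouse strain, in KSOM culture medium. It held L-lactate at 5 mM, and pyruvate and glucose at 0.2 mM each, and no inhibitor was given. RNA was read with Smart-seq2, which primes full-length cDNA at the poly(A) tail with an oligo-dT primer and amplifies it. Whether a library held 1 embryo or several is not given in the sources used here. The p-values therefore reflect no more than the scatter among libraries, which may be technical. For the tests of single genes (limma), that scatter was taken from 45 standard-medium libraries of 12 groups, collected at 34 to 114 h. Levels are CPM, which divide each count by the total of its library, and fold changes are on the scale of log2(CPM + 1), which understates the change of low genes. Means are given ± SD over 4 mid 2-cell and 3 early 2-cell libraries, and log2 fold changes ± SE. Values of single libraries follow the order of the library numbers.

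A mouse zygote starts with RNA and protein stored by the oocyte and transcribes little itself. During the 2-cell stage the embryonic genome is switched on in a major wave, with a short burst of genes such as the Zscan4 cluster that are nearly silent in other tissues. Over the same hours the stored maternal RNA is deadenylated and degraded, in part through the CCR4-NOT complex and its adaptor BTG4. CPM are shares of a library, so a change in total RNA per embryo is not seen, and a change in poly(A) tail length cannot be told apart from a change in amount. By their labels both groups are 2-cell embryos. For any cells of other types in a library, fewer cells and less RNA per cell also cannot be told apart.

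The windows around the annotated start of 6 genes whose RNA changed and of Obox5, which did not pass the test in CPM as deposited, are shown because the results below return to these genes (RefSeq, GRCm38.p6, from 250 bases before to 50 after the start, written 5′ to 3′ along the gene). Zscan4c and Zscan4d are copies of one burst gene, and capitals mark TATAAA on the gene's strand.
Zscan4c (chr7:11005495-11005794, plus strand): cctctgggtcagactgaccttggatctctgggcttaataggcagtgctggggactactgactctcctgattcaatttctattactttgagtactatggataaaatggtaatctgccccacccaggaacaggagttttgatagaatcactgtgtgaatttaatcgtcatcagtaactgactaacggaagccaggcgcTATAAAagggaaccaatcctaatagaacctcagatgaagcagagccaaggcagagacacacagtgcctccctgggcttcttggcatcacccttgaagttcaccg
Zscan4d (chr7:11166099-11166398, minus strand): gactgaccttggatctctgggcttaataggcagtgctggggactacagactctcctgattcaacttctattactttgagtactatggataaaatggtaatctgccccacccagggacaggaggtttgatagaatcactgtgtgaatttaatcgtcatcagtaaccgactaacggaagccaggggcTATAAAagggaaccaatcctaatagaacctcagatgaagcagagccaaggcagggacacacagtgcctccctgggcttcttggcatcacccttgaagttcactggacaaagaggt
Over 287 aligned columns these windows were 97.6% identical. TATAAA stood on the gene's strand in 5.42% of the 3300 windows of genes at least 2-fold higher in mid 2-cell embryos, in 3.72% of the 457 windows of genes at least 2-fold lower, and in 5.13% of the 12349 windows of tested genes.
For Zfp352, a zinc finger gene of the same burst, capitals mark TAATCC, the core that paired-like homeobox proteins are known to bind, on either strand.
Zfp352 (chr4:90218570-90218869, plus strand): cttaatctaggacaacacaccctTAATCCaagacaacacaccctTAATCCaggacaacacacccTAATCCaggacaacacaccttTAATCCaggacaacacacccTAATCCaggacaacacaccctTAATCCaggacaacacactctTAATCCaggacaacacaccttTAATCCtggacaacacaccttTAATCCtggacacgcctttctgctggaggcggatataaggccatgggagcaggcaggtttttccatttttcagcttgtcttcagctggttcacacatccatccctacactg
The window holds 9 copies in a short tandem repeat, and no other of the 27025 windows holds as many. TAATCC on either strand was present in 7.15% of windows of genes at least 2-fold higher, in 5.69% of those at least 2-fold lower and in 6.14% of all windows of tested genes, so most genes that changed do not carry these letters there. For the longer TTAATCC on either strand these shares were 3.24%, 1.53% and 2.01%.
Obox3, Obox1 and Obox5 are homeobox genes of one cluster. Capitals mark the longest exact run, which Obox3 and Obox1 share over 70 bases and Obox5 and Obox1 over 82 bases.
Obox3 (chr7:15639728-15640027, minus strand): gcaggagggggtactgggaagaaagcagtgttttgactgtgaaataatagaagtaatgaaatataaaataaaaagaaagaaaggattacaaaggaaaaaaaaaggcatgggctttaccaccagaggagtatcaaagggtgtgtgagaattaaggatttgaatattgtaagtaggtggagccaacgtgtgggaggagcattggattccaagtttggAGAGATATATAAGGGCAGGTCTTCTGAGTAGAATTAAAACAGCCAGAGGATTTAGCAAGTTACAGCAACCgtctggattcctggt
Obox1 (chr7:15547007-15547306, plus strand): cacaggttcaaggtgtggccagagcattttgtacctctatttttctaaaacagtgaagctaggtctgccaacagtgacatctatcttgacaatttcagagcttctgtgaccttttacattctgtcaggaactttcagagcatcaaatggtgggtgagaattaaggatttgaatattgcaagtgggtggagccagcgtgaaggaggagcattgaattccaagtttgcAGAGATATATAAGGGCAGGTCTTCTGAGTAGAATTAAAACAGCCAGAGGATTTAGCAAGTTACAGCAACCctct
Obox5 (chr7:15750120-15750419, plus strand): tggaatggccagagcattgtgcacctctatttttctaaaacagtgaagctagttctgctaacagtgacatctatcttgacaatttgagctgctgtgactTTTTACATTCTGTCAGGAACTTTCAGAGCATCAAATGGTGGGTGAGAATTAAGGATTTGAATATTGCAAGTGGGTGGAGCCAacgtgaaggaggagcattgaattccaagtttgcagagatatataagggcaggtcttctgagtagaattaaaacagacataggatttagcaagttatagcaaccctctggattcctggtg
Over 164 aligned columns the Obox3 and Obox1 windows were 93.3% identical, and over 285 columns those of Obox1 and Obox5 were 95.8% identical.
Prps1 had the second largest rise of the genes named here. Capitals mark CCGGAAG on either strand, the core that ETS-family factors such as GABPA are known to bind.
Prps1 (chrX:140456353-140456652, plus strand): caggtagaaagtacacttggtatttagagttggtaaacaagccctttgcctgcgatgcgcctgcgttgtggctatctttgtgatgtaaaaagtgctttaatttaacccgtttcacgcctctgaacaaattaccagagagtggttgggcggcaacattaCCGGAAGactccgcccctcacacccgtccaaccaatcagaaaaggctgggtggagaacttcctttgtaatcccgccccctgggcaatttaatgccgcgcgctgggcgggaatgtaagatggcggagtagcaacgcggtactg
CCGGAAG on either strand was present in 17.1% of windows of genes at least 2-fold higher, in 19.7% of those at least 2-fold lower and in 16.4% of all windows of tested genes. A match of letters describes the window and is not evidence that a factor binds it.

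Of 20158 genes tested, 10211 passed the threshold (limma, adjusted p under 0.05), or 50.7%. Of these, 8657 were higher in mid 2-cell embryos (42.9% of the genes tested) and 1554 were lower (7.71%). Of the genes called, 5141 were at least 2-fold higher (25.5% of the genes tested) and 716 at least 2-fold lower (3.55% of the genes tested). Libraries of the groups did not overlap in 10742 genes with mid 2-cell embryos higher (53.3%) and in 1965 with them lower (9.75%). This split depends on how the libraries are scaled: 84.8% of the genes called were higher with CPM as deposited, against 50.5% after median-ratio scaling, 42.4% after quantile scaling and 78.2% when the 100 highest genes were left out of each total. The median log2 fold change of all genes was 0.43 as deposited, and 0.02, -0.10 and 0.38 under these scalings. List counts below are therefore also given after median-ratio scaling, under which 25.8% of the genes tested rose and 25.3% fell. These shares were 20.7% and 28.1% after quantile scaling, and 37.9% and 10.6% without the 100 highest genes.

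**Figure D1:**
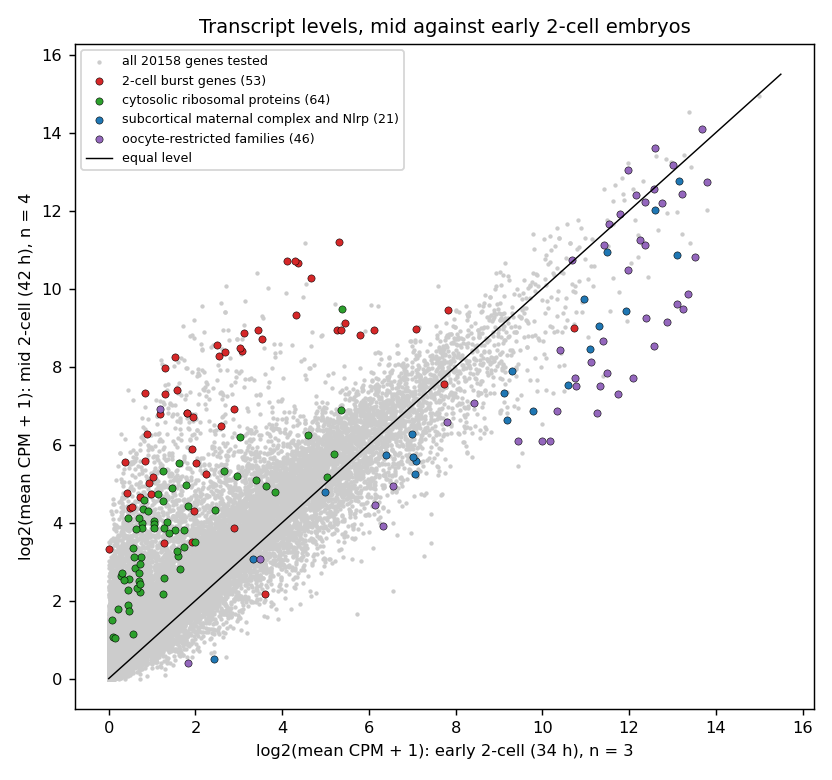
Mean level of each of the 20158 genes tested, as log2(mean CPM + 1), in mid 2-cell embryos (42 h, n = 4, vertical axis) against early 2-cell embryos (34 h, n = 3, horizontal axis). Burst genes and cytosolic ribosomal proteins lie above the line of equal level with few exceptions, while genes of the subcortical maternal complex and most oocyte-restricted families lie at high levels below it.

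The RNA of mid 2-cell embryos was spread over more genes. The 100 highest genes held 41.9%, 40.8%, 42.0% and 39.97% of mid 2-cell libraries 1 to 4, against 52.5%, 48.5% and 50.3% of early 2-cell libraries 1 to 3. The groups did not overlap, and the difference of -9.26 percentage points gave an exact two-sided permutation p of 0.057, the smallest that 4 against 3 libraries allow. Of the 100 genes with the highest mean level in each group, 63 were shared. Between 14771 and 15271 genes lay above 1 CPM in mid 2-cell libraries, against 11540 to 12242 in early 2-cell libraries. RNA of the mitochondrial genome took 6.60% to 7.88% of mid 2-cell libraries, against 2.83% to 3.77% of early 2-cell libraries. Inferred depth was 11.3 to 18.7 M reads in mid 2-cell libraries, against 13.4 to 16.6 M in early 2-cell libraries.

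Library 3 of the mid 2-cell embryos stood apart from the other 3. It was the lowest of the 4 in 4801 (55.5%) of the genes that were higher, and the highest of the 4 in 1092 (70.3%) of the genes that were lower. On a line over 11005 genes, drawn on the log2 scale from the early 2-cell mean (0) to the late 2-cell mean (1), mid 2-cell libraries 1 to 4 lay at 0.533, 0.547, 0.470 and 0.575, against -0.0115, 0.0177 and -0.0062 for early 2-cell libraries 1 to 3, which helped to set the line. It was also the deepest of the 7 libraries, at 18.7 M reads, and the part of depth in these values was not tested. Without it, 8292 genes were higher and 1569 lower.

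**Figure D2:**
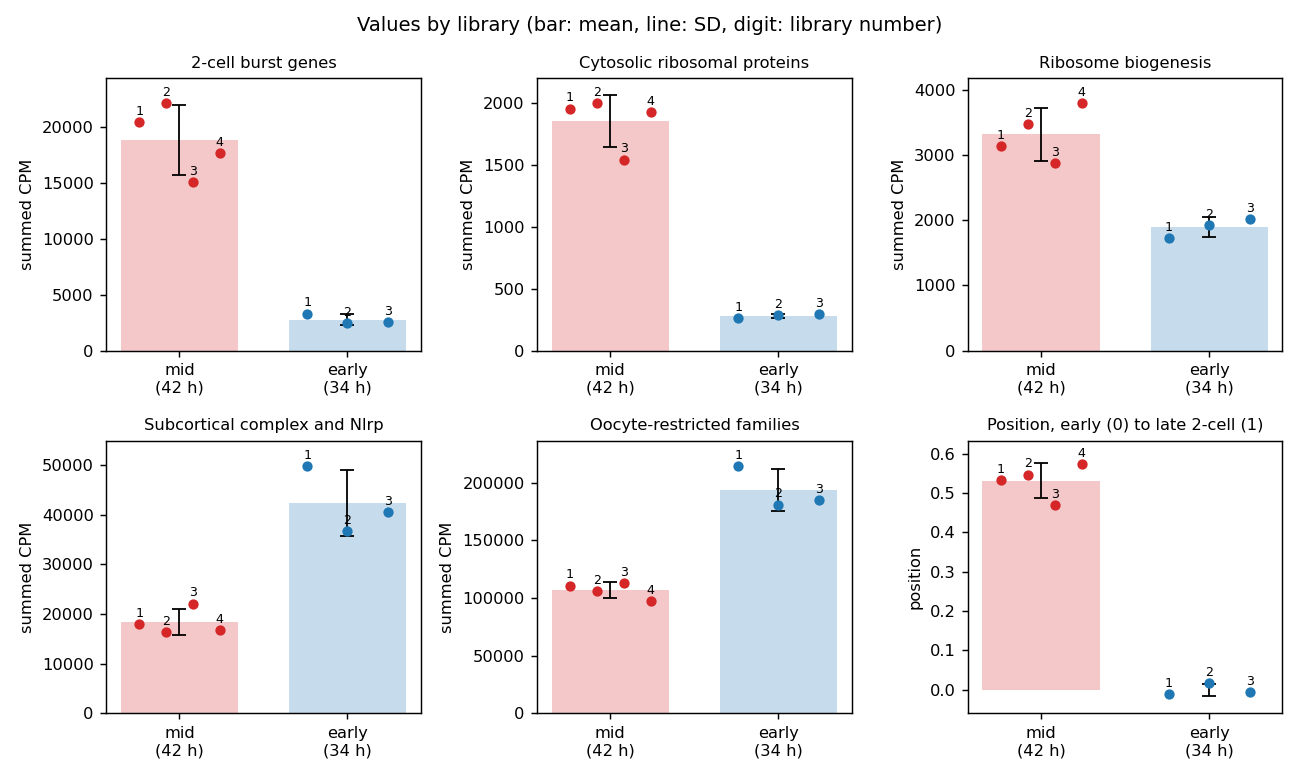
Summed CPM of 5 gene lists in each library, and the position of each library between early (0) and late (1) 2-cell embryos, with mid 2-cell embryos at the left and early 2-cell embryos at the right of each panel. In every panel the groups do not overlap, and mid 2-cell library 3 is the one nearest to the early 2-cell libraries.

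Markers of other cell types were low in both groups. The summed level of 18 cumulus and granulosa markers was 36.8 to 45.8 CPM in mid 2-cell libraries, against 22.3 to 26.6 CPM in early 2-cell libraries. Of these, 8 were tested, of which 6 rose and 1 fell, and Amh, which marks granulosa cells, was listed at 0 in all 7 libraries. The 13 sperm markers found summed to 7.98 to 10.02 CPM in mid 2-cell libraries, against 2.61 to 5.08 CPM in early 2-cell libraries, with Tnp1, Tnp2 and Gapdhs listed at 0 throughout, and 3 of 5 tested rose. The 8 blood markers summed to 8.27 to 13.7 CPM in mid 2-cell libraries, against 1.12 to 2.34 CPM in early 2-cell libraries, and all 3 tested rose. The 9 oviduct markers summed to 7.72 to 11.4 CPM in mid 2-cell libraries, against 3.07 to 4.95 CPM in early 2-cell libraries, with Wfdc2 listed at 0 throughout, and 2 of 6 tested rose and 1 fell. The tested member with the highest level fell among the cumulus and granulosa markers (Cyp19a1). It rose among the sperm (Ldhc), blood (Hba-a2) and oviduct markers (Krt18). After median-ratio scaling, 5 cumulus and granulosa markers rose and 2 fell, and 2 sperm markers rose and 1 fell. Under that scaling all 3 blood markers tested rose, and 1 oviduct marker rose and 1 fell. Quantile scaling left 1 blood marker higher. Over all genes tested, 42.9% rose and 7.71% fell as deposited, and 25.8% and 25.3% after median-ratio scaling. The part of these cell types in the results was not tested.

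The burst genes rose to high levels almost as a whole list. Of 53 genes known for a burst of transcription in 2-cell embryos, 50 rose, 2 fell and 1 did not pass, with a median log2 fold change of 4.35 against 0.43 for all genes. After median-ratio scaling 48 rose and 3 fell, with a median of 4.09. Their summed level was 20450.1, 22159.7, 15067 and 17659 CPM in mid 2-cell libraries, against 3317, 2448 and 2560.0 CPM in early 2-cell libraries. The list holds genes known from earlier work to be high in 2-cell embryos, so its direction is background knowledge and not an independent result.

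Zscan4 proteins are SCAN-domain zinc finger proteins that are known from mouse embryonic stem cells to lengthen telomeres. All 6 Zscan4 copies rose. Near-identical copies may share reads, and how such reads were counted is not given in the sources used here. The copies summed to 2726, 3160.4, 2319.9 and 2666 CPM in mid 2-cell libraries, against 44.2, 74.3 and 60.4 CPM in early 2-cell libraries. The sum was 45.6-fold higher in mid 2-cell embryos. Among the copies, Zscan4f had 1226, 1456, 1003 and 1254 CPM in mid 2-cell libraries, against 17.8, 30.7 and 24.7 CPM in early 2-cell libraries (log2 fold change 5.62 ± 0.42, limma adjusted p = 5.9e-15). Zscan4c (chromosome 7, 11005745 to 11010547) had 335 ± 42.6 CPM in mid 2-cell embryos, against 7.44 ± 4.96 CPM in early 2-cell embryos (log2 fold change 5.46 ± 0.32, limma adjusted p = 1.9e-18). Zscan4d had 637 ± 54.6 CPM in mid 2-cell embryos, against 19.01 ± 3.48 CPM in early 2-cell embryos (log2 fold change 5.01 ± 0.35, limma adjusted p = 8.7e-16). For both of these copies, whose start windows are nearly identical, the groups did not overlap.

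Other duplicated families of the burst moved in the same direction. The 3 Trim43 genes, which encode tripartite-motif proteins, summed to 659.7 ± 120.4 CPM in mid 2-cell embryos, against 5.83 ± 2.94 CPM in early 2-cell embryos. The 5 Tdpoz genes, which encode proteins with MATH and BTB domains, summed to 395 ± 56.3 CPM in mid 2-cell embryos, against 2.89 ± 0.138 CPM in early 2-cell embryos. The 5 Usp17l genes, a family of deubiquitinases, summed to 504 ± 54.9 CPM in mid 2-cell embryos, against 18.6 ± 6.79 CPM in early 2-cell embryos. Every member of these 3 families rose. Trim43b (log2 fold change 6.85, limma adjusted p = 6.4e-23) and Trim43a (log2 fold change 6.73, limma adjusted p = 4.0e-24) had the largest rises of the list. Tdpoz1 had 154, 176, 123 and 179 CPM in mid 2-cell libraries, against 0.906, 0.917 and 0.550 CPM in early 2-cell libraries (log2 fold change 6.46 ± 0.39, limma adjusted p = 4.2e-18). Tdpoz5 rose as well (log2 fold change 5.98, limma adjusted p = 4.0e-19). Zfp352, whose start window holds the TAATCC repeat, had 547, 508, 405 and 489.7 CPM in mid 2-cell libraries, against 9.92, 11.6 and 8.19 CPM in early 2-cell libraries (log2 fold change 5.49 ± 0.56, limma adjusted p = 3.4e-11). Every mid 2-cell library was far above every early 2-cell library for it.

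Of the burst list, 3 genes did not rise. Duxf3, a copy of the double homeobox factor Dux that is known to switch on burst genes, had 3.04, 3.57, 3.52 and 3.92 CPM in mid 2-cell libraries, against 11.9, 10.2 and 11.2 CPM in early 2-cell libraries (log2 fold change -1.43 ± 0.18, limma adjusted p = 5.8e-09). It fell, and the groups did not overlap. AA792892 had 501, 502, 584 and 459.8 CPM in mid 2-cell libraries, against 2219.9, 1377 and 1492 CPM in early 2-cell libraries (log2 fold change -1.70 ± 0.27, limma adjusted p = 1.3e-06) and fell too. Arg2, arginase 2, averaged 187 CPM in mid 2-cell embryos, against 213 CPM in early 2-cell embryos, and did not pass. AA414992 and AF067063, for which no role is given here, were not in the list and were among the 5 largest rises of the genes named. AA414992 had 847, 854, 557 and 750.3 CPM in mid 2-cell libraries, against 4.80, 2.36 and 3.13 CPM in early 2-cell libraries (log2 fold change 7.43 ± 0.27, limma adjusted p = 3.2e-25). AF067063 had 383 ± 81.9 CPM in mid 2-cell embryos, against 3.35 ± 1.15 CPM in early 2-cell embryos (log2 fold change 6.47 ± 0.26, limma adjusted p = 1.5e-23).

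The Obox genes split by member. Obox proteins are homeobox factors of oocytes and early embryos, and of 15 genes in the Obox and related homeobox list, 6 rose, 7 fell and 2 did not pass. After median-ratio scaling, 5 rose and 9 fell. Over all genes tested, 42.9% rose and 7.71% fell as deposited, and 25.8% and 25.3% after that scaling. Obox6 had 243, 279.7, 188 and 264 CPM in mid 2-cell libraries, against 5.12, 2.01 and 2.28 CPM in early 2-cell libraries (log2 fold change 5.95 ± 0.22, limma adjusted p = 8.3e-25). Obox3 had 556, 569, 440.0 and 599 CPM in mid 2-cell libraries, against 38.2, 45.4 and 38.9 CPM in early 2-cell libraries (log2 fold change 3.69 ± 0.18, limma adjusted p = 3.3e-21). Obox8 rose as well (41.4 ± 17.1 CPM at mid 2-cell and 1.097 ± 0.537 CPM at early 2-cell, log2 fold change 4.28, limma adjusted p = 3.8e-12). Crxos, a homeobox gene related to Obox, also rose (129 ± 29.7 CPM at mid 2-cell and 1.88 ± 0.954 CPM at early 2-cell, log2 fold change 5.51, limma adjusted p = 8.7e-24). In contrast, Obox1 had 2669, 2529.6, 3215 and 2355 CPM in mid 2-cell libraries, against 10444, 8912 and 9227 CPM in early 2-cell libraries (log2 fold change -1.83 ± 0.29, limma adjusted p = 7.4e-07), and it fell with no overlap of groups. Obox2 fell too (691 ± 139.7 CPM at mid 2-cell and 3931 ± 407 CPM at early 2-cell, log2 fold change -2.52, limma adjusted p = 1.1e-10). Obox7 fell as well (686 ± 51.1 CPM at mid 2-cell and 3038 ± 747 CPM at early 2-cell, log2 fold change -2.12, limma adjusted p = 1.9e-08). The oocyte homeobox gene Nobox fell (76.6 ± 16.01 CPM at mid 2-cell and 222 ± 15.4 CPM at early 2-cell, log2 fold change -1.54, limma adjusted p = 8.9e-06), with no pass at a pseudocount of 0.1 (limma, adjusted p = 0.079). Obox5 had 9559, 8766, 8678 and 8670.0 CPM in mid 2-cell libraries, against 12276, 10472 and 10272 CPM in early 2-cell libraries, a log2 fold change of -0.30 that did not pass the test (limma, adjusted p = 0.34), although the groups did not overlap. It passed as lower in a fit of the 2 groups alone (limma, adjusted p = 0.029) and after median-ratio scaling (-1.19, limma adjusted p = 3.5e-05). Obox3 and Obox1 thus changed in opposite directions while their start windows share 70 bases exactly. How reads shared by Obox members were counted is not given in the sources used here. Obox1, Obox7 and Nobox were picked after their values were seen.

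**Figure D3:**
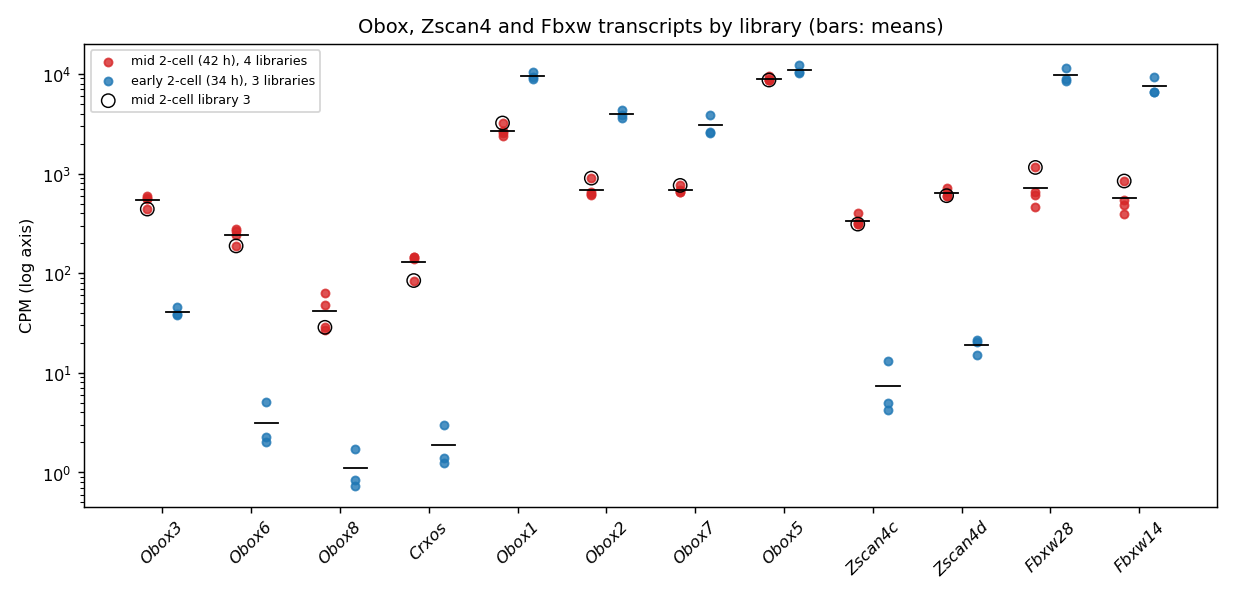
CPM (log axis) in each library of Obox, Zscan4 and Fbxw genes, mid 2-cell embryos at the left and early 2-cell embryos at the right of each gene, with bars at the means and circles around mid 2-cell library 3. Obox3, Obox6, Obox8 and Crxos are higher in every mid 2-cell library, Obox1, Obox2 and Obox7 are lower in every one, and the 2 Fbxw genes are lower by more than 10-fold on average.

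Other genes with the largest rises included enzymes and transcription regulators. Prps1 makes phosphoribosyl pyrophosphate, the ribose donor of nucleotide synthesis, and lies on chromosome X, 140456613 to 140476140 (GENCODE vM21, GRCm38). It had 1516, 1516, 934 and 1428 CPM in mid 2-cell libraries, against 14.2, 7.42 and 7.48 CPM in early 2-cell libraries (log2 fold change 7.01 ± 0.27, limma adjusted p = 2.1e-24). Gabpa, the DNA-binding subunit of an ETS-family transcription factor, had 236, 270.1, 197 and 292 CPM in mid 2-cell libraries, against 3.26, 2.01 and 2.13 CPM in early 2-cell libraries (log2 fold change 6.18 ± 0.18, limma adjusted p = 1.6e-27). Cggbp1, which encodes a protein that binds CGG repeats, had 169 ± 30.8 CPM in mid 2-cell embryos, against 1.54 ± 0.440 CPM in early 2-cell embryos (log2 fold change 6.06 ± 0.18, limma adjusted p = 1.6e-27). For these 3 genes all early 2-cell libraries were under 15 CPM and all mid 2-cell libraries above 120 CPM. Cbx3, the heterochromatin protein HP1 gamma, had 378 ± 71.6 CPM in mid 2-cell embryos, against 4.32 ± 2.17 CPM in early 2-cell embryos (log2 fold change 6.21 ± 0.37, limma adjusted p = 5.1e-18). Gcsh, the H protein of the glycine cleavage system, had 376 ± 51.1 CPM in mid 2-cell embryos, against 4.51 ± 2.02 CPM in early 2-cell embryos (log2 fold change 6.15 ± 0.21, limma adjusted p = 4.4e-26). In 67 genes every early 2-cell library was under 1 CPM and every mid 2-cell library at 20 CPM or more, while no gene showed the reverse pattern.

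Among 42 transcription factors of early embryos, 28 rose, 4 fell and 10 did not pass. After median-ratio scaling, 21 rose and 9 fell. The shares over all genes tested were 42.9% higher and 7.71% lower as deposited, and 25.8% and 25.3% after that scaling. Besides Gabpa, Dppa4, a DNA-binding partner of DPPA2, had 62.2, 65.8, 43.7 and 70.4 CPM in mid 2-cell libraries, against 2.81, 2.93 and 1.77 CPM in early 2-cell libraries (log2 fold change 4.13 ± 0.16, limma adjusted p = 2.7e-24). Dppa2 itself fell and had 84.2, 99.3, 95.1 and 91.7 CPM in mid 2-cell libraries, against 162, 161 and 169 CPM in early 2-cell libraries (log2 fold change -0.82 ± 0.19, limma adjusted p = 3.6e-04). The 2 partners thus changed in opposite directions between 34 and 42 h. Yy1, a zinc finger regulator, had 27.3 ± 4.87 CPM at mid 2-cell and 1.32 ± 0.125 CPM at early 2-cell (log2 fold change 3.59, limma adjusted p = 7.1e-14). Elf3, of the ETS family, had 52.7 ± 8.41 CPM at mid 2-cell and 5.50 ± 0.577 CPM at early 2-cell (log2 fold change 3.03, limma adjusted p = 1.1e-10). The nuclear receptor gene Nr5a2 had 24.8, 28.4, 20.97 and 31.6 CPM in mid 2-cell libraries, against 3.13, 5.89 and 6.01 CPM in early 2-cell libraries (log2 fold change 2.22 ± 0.20, limma adjusted p = 1.1e-12). Yap1, the coactivator of the Hippo pathway, had 163 ± 7.55 CPM at mid 2-cell and 61.9 ± 3.68 CPM at early 2-cell (log2 fold change 1.39, limma adjusted p = 3.0e-08). Tead4, the DNA-binding partner of YAP1 that trophectoderm needs, was low in both groups but rose (3.62 ± 0.835 CPM at mid 2-cell and 0.0746 ± 0.129 CPM at early 2-cell, log2 fold change 2.09, limma adjusted p = 7.0e-11). Klf17, a Krüppel-like factor of oocytes, fell and had 903, 938, 1179 and 869 CPM in mid 2-cell libraries, against 3825, 3085 and 3579 CPM in early 2-cell libraries (log2 fold change -1.85 ± 0.32, limma adjusted p = 5.0e-06). Nfya, a subunit of the factor that binds CCAAT, had 25.1 ± 4.12 CPM at mid 2-cell and 24.9 ± 5.17 CPM at early 2-cell, and the groups overlapped. It passed as lower after median-ratio scaling (-0.85, limma adjusted p = 8.0e-04) and after quantile scaling (-0.76, limma adjusted p = 0.0030). CCAAT on either strand was present in 41.9% of the start windows of genes at least 2-fold higher, in 45.5% of those at least 2-fold lower and in 39.4% of all windows of tested genes.

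The transcription machinery changed in both directions. Of 49 genes of RNA polymerase II and its general factors, 32 rose, 6 fell and 11 did not pass. After median-ratio scaling, 19 rose and 14 fell. For comparison, 42.9% of all genes tested rose and 7.71% fell as deposited, and 25.8% and 25.3% after that scaling. Cdk9, the kinase that releases paused polymerase, had 27.5, 29.2, 18.7 and 27.3 CPM in mid 2-cell libraries, against 2.01, 2.07 and 2.34 CPM in early 2-cell libraries (log2 fold change 3.07 ± 0.21, limma adjusted p = 2.0e-16). Gtf2f1, of the general factor TFIIF, had 36.2 ± 3.81 CPM at mid 2-cell and 3.83 ± 0.486 CPM at early 2-cell (log2 fold change 2.94, limma adjusted p = 1.6e-15). Supt4a, of the elongation factor DSIF, had 74.8 ± 8.91 CPM at mid 2-cell and 10.1 ± 1.75 CPM at early 2-cell (log2 fold change 2.78, limma adjusted p = 1.1e-19). Gtf2b, the general factor TFIIB, fell and had 159, 157, 175 and 153 CPM in mid 2-cell libraries, against 512, 543 and 679.7 CPM in early 2-cell libraries (log2 fold change -1.83 ± 0.22, limma adjusted p = 2.3e-09). Supt16, a subunit of the histone chaperone FACT, fell too (30.3 ± 3.89 CPM at mid 2-cell and 79.96 ± 10.6 CPM at early 2-cell, log2 fold change -1.37, limma adjusted p = 6.0e-05). Polr2a, the largest subunit of RNA polymerase II, was low, with 2.75, 1.58, 1.77 and 1.77 CPM in mid 2-cell libraries, against 1.27, 1.67 and 0.481 CPM in early 2-cell libraries, and did not pass, although it passed as higher in a fit of the 2 groups alone (limma, adjusted p = 0.035). Polr2c, another subunit, had 1069 ± 65.8 CPM at mid 2-cell and 962 ± 102 CPM at early 2-cell and did not pass either. It passed as lower after median-ratio scaling (-0.73, limma adjusted p = 6.3e-06) and as higher after quantile scaling (0.37, limma adjusted p = 0.0078).

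**Figure D4:**
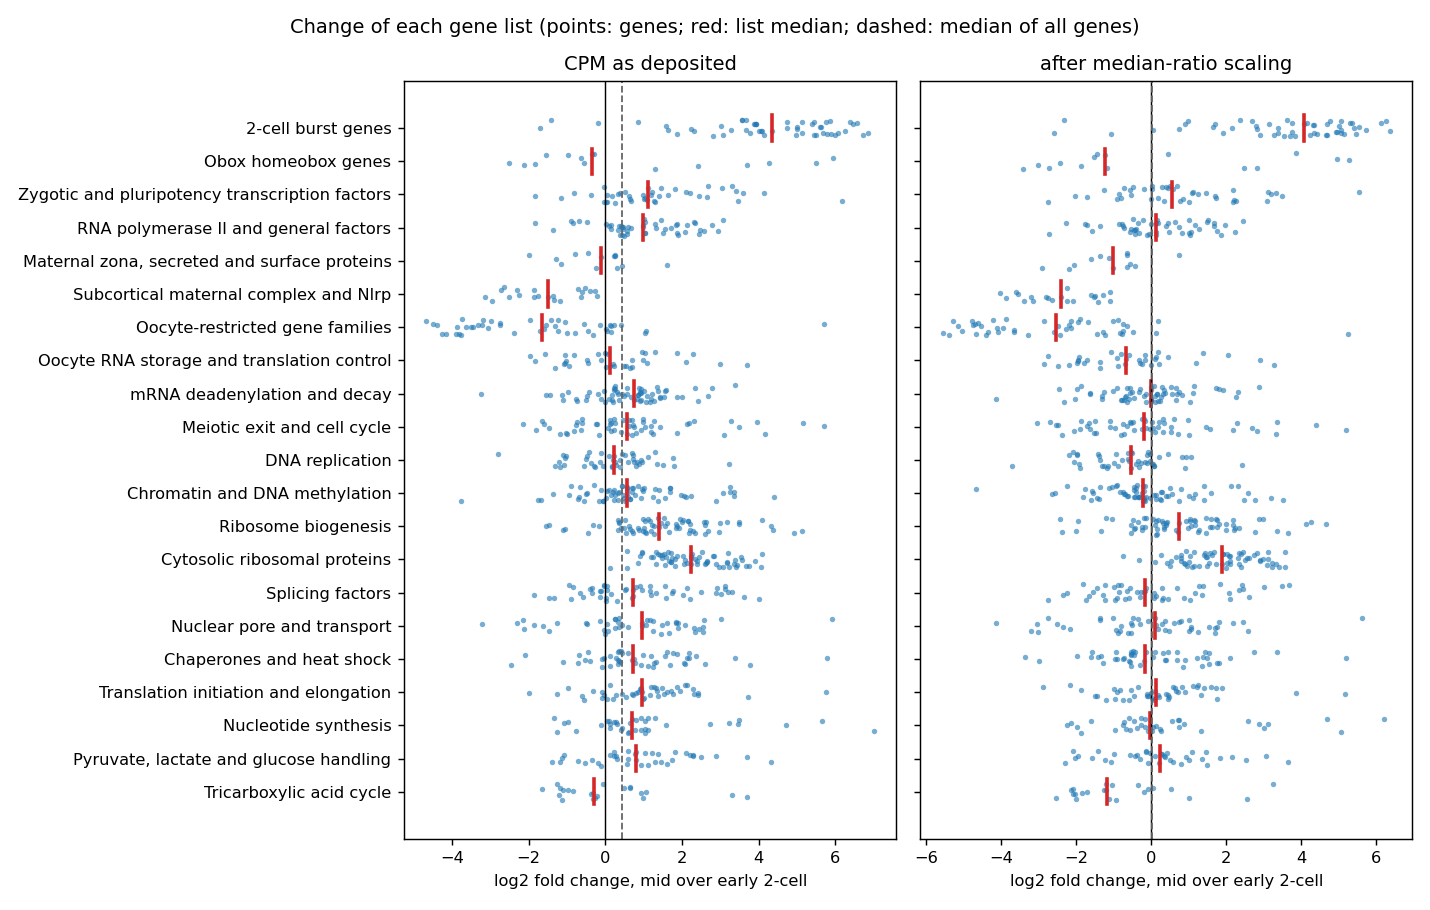
Log2 fold change, mid over early 2-cell, of the genes in 21 lists, with CPM as deposited at the left and after median-ratio scaling at the right. The medians of the burst list (4.35 and 4.09) and of the cytosolic ribosomal proteins (2.23 and 1.89) lie above the median of all genes in both panels, and those of the subcortical complex (-1.51 and -2.40) and oocyte-restricted lists (-1.65 and -2.54) lie below it.

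Genes of cytosolic ribosomal proteins rose nearly throughout. No cytosolic ribosomal protein gene was lower, even at an unadjusted p under 0.05 (limma). Of 64 such genes, 63 rose, 0 fell and 1 did not pass, with a median log2 fold change of 2.23 (after median-ratio scaling 59 rose and 1 fell). Their summed level was 1951, 1995, 1540.2 and 1921 CPM in mid 2-cell libraries, against 263, 289 and 295 CPM in early 2-cell libraries. Rplp0, of the ribosomal stalk, had 803, 777, 607 and 662 CPM in mid 2-cell libraries, against 40.7, 36.1 and 45.1 CPM in early 2-cell libraries (log2 fold change 4.09 ± 0.21, limma adjusted p = 3.0e-20). Rps3, of the small subunit, had 39.3 ± 8.60 CPM at mid 2-cell and 1.38 ± 0.434 CPM at early 2-cell (log2 fold change 4.07, limma adjusted p = 2.1e-23). Ribosomal protein genes have many processed copies, so part of these reads may belong to copies.

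Of 69 ribosome biogenesis genes, 55 rose, 5 fell and 9 did not pass (median 1.41, and after median-ratio scaling 37 rose and 10 fell). Nop16, a nucleolar protein, had 78.4, 84.6, 51.4 and 95.9 CPM in mid 2-cell libraries, against 1.34, 0.870 and 1.44 CPM in early 2-cell libraries (log2 fold change 5.12 ± 0.18, limma adjusted p = 2.5e-25). Nop2, a nucleolar RNA methyltransferase, had 31.1 ± 5.12 CPM at mid 2-cell and 0.546 ± 0.224 CPM at early 2-cell (log2 fold change 4.37, limma adjusted p = 1.3e-21). Polr1c, a subunit shared by RNA polymerases I and III, had 74.8 ± 11.8 CPM at mid 2-cell and 2.78 ± 0.365 CPM at early 2-cell (log2 fold change 4.32, limma adjusted p = 2.8e-26). Nhp2, a protein of pseudouridylation complexes, had 106 ± 18.6 CPM at mid 2-cell and 5.22 ± 1.02 CPM at early 2-cell (log2 fold change 4.10, limma adjusted p = 2.1e-23). Ubtfl1, a relative of the polymerase I factor UBTF that is known from 2-cell embryos, had 110.1 ± 14.3 CPM at mid 2-cell and 2.76 ± 1.04 CPM at early 2-cell (log2 fold change 4.91, limma adjusted p = 1.9e-23). Bms1, a GTPase of small subunit assembly, fell (9.48 ± 1.27 CPM at mid 2-cell and 29.6 ± 2.20 CPM at early 2-cell, log2 fold change -1.55, limma adjusted p = 7.6e-08). Ncl, nucleolin, had 86.5, 83.4, 74.1 and 103 CPM in mid 2-cell libraries, against 43.7, 51.1 and 61.3 CPM in early 2-cell libraries (log2 fold change 0.73 ± 0.20, limma adjusted p = 0.0019), with the sign turned after median-ratio scaling (-0.15).

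Translation factors, splicing factors and nuclear transport genes were mixed. Of 46 translation factor genes, 32 rose, 5 fell and 9 did not pass. After median-ratio scaling, 18 rose and 13 fell. The initiation factor gene Eif1a had 177, 184, 128 and 177 CPM in mid 2-cell libraries, against 2.28, 2.36 and 1.62 CPM in early 2-cell libraries (log2 fold change 5.75 ± 0.17, limma adjusted p = 1.6e-27). Its X-linked relative Eif1ax had 45.8, 45.4, 42.9 and 46.7 CPM in mid 2-cell libraries, against 41.9, 51.4 and 52.8 CPM in early 2-cell libraries and did not pass. It passed as lower after median-ratio scaling (-0.98, limma adjusted p = 1.6e-05) and after quantile scaling (-0.66, limma adjusted p = 0.0012). The groups did not overlap for Eif1a and overlapped for Eif1ax. Eif1b, which encodes another initiation factor, fell (88.7 ± 19.5 CPM at mid 2-cell and 349 ± 38.04 CPM at early 2-cell, log2 fold change -1.98, limma adjusted p = 6.3e-11). Of 51 splicing genes, 28 rose, 7 fell and 16 did not pass. After median-ratio scaling, 18 rose and 20 fell. Beside the translation and splicing lists, 42.9% of all genes tested rose and 7.71% fell as deposited. After median-ratio scaling these shares were 25.8% and 25.3%. Cdc5l, of the PRP19 complex, had 26.7 ± 4.47 CPM at mid 2-cell and 0.764 ± 0.493 CPM at early 2-cell (log2 fold change 4.00, limma adjusted p = 9.7e-22). Rbm8a, of the exon junction complex, had 247 ± 35.8 CPM at mid 2-cell and 23.8 ± 1.04 CPM at early 2-cell (log2 fold change 3.31, limma adjusted p = 1.8e-20). Srsf7, an SR protein, had 137 ± 28.2 CPM at mid 2-cell and 14.02 ± 2.25 CPM at early 2-cell (log2 fold change 3.19, limma adjusted p = 7.7e-15). Prpf6, of the tri-snRNP, fell (14.6 ± 2.33 CPM at mid 2-cell and 55.7 ± 4.42 CPM at early 2-cell, log2 fold change -1.87, limma adjusted p = 3.0e-10).

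Of 47 nuclear pore and transport genes, 26 rose, 8 fell and 13 did not pass. After median-ratio scaling, 18 rose and 18 fell. Kpna1, an importin alpha, had 103, 97.8, 81.7 and 122 CPM in mid 2-cell libraries, against 0.671, 0.334 and 1.14 CPM in early 2-cell libraries (log2 fold change 5.91 ± 0.20, limma adjusted p = 3.1e-26). Nup93, of the inner ring of the pore, had 19.5, 13.5, 22.5 and 15.1 CPM in mid 2-cell libraries, against 174, 168 and 172 CPM in early 2-cell libraries (log2 fold change -3.23 ± 0.34, limma adjusted p = 9.8e-11). Nup88 fell as well (111 ± 47.9 CPM at mid 2-cell and 520.3 ± 36.4 CPM at early 2-cell, log2 fold change -2.30, limma adjusted p = 3.4e-15). Kpna1 was under 2 CPM in every early 2-cell library, whereas Nup93 was high in all 3 of them, and the 2 largest changes of the list ran in opposite directions. Of 48 chaperone genes, 29 rose, 6 fell and 13 did not pass. After median-ratio scaling, 17 rose and 19 fell. Beside the nuclear transport and chaperone lists, 42.9% of all genes tested rose and 7.71% fell as deposited. After median-ratio scaling these shares were 25.8% and 25.3%. Selenos, a selenoprotein of ER-associated degradation, had 146, 179, 111 and 207 CPM in mid 2-cell libraries, against 3.06, 1.61 and 1.26 CPM in early 2-cell libraries (log2 fold change 5.77 ± 0.20, limma adjusted p = 6.2e-26). Hspa2, an HSP70 best known from the testis, rose (26.4 ± 4.17 CPM at mid 2-cell and 1.0002 ± 0.361 CPM at early 2-cell, log2 fold change 3.78, limma adjusted p = 1.3e-12). The small heat shock protein gene Hspb1 rose (35.3 ± 7.36 CPM at mid 2-cell and 2.46 ± 0.594 CPM at early 2-cell, log2 fold change 3.38, limma adjusted p = 8.2e-13). So did the constitutive HSP70 gene Hspa8 (72.2 ± 9.94 CPM at mid 2-cell and 16.3 ± 1.21 CPM at early 2-cell, log2 fold change 2.07, limma adjusted p = 1.0e-11). Hsp90aa1, an HSP90, fell and had 239, 274, 262 and 271 CPM in mid 2-cell libraries, against 1323, 1372 and 1675 CPM in early 2-cell libraries (log2 fold change -2.47 ± 0.27, limma adjusted p = 1.9e-10). Hspa1b, the inducible HSP70 known to be transcribed at the very start of genome activation, lay at or under 1.12 CPM in all 7 libraries and rose within that range (log2 fold change 0.76, limma adjusted p = 0.0028), with 0.31 and no pass after quantile scaling.

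Enzymes of nucleotide synthesis, the list that holds Prps1, moved in both directions. Of 37 genes, 21 rose, 5 fell and 11 did not pass. After median-ratio scaling, 12 rose and 11 fell. The shares over all genes tested were 42.9% higher and 7.71% lower as deposited, and 25.8% and 25.3% after that scaling. Ppat, the first committed enzyme of purine synthesis, had 167, 163, 112 and 173 CPM in mid 2-cell libraries, against 3.53, 1.69 and 1.34 CPM in early 2-cell libraries (log2 fold change 5.64 ± 0.21, limma adjusted p = 8.7e-25). Nme2, a nucleoside diphosphate kinase, had 32.1 ± 7.55 CPM at mid 2-cell and 0.239 ± 0.0742 CPM at early 2-cell (log2 fold change 4.71, limma adjusted p = 1.4e-20). Adss, which commits IMP to AMP, fell (182 ± 26.3 CPM at mid 2-cell and 463 ± 15.47 CPM at early 2-cell, log2 fold change -1.35, limma adjusted p = 1.4e-08).

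Both lactate dehydrogenase genes named changed in opposite directions. Of 38 genes of pyruvate, lactate and glucose handling, 21 rose, 5 fell and 12 did not pass. After median-ratio scaling, 13 rose and 11 fell. For comparison, 42.9% of all genes tested rose and 7.71% fell as deposited, and 25.8% and 25.3% after that scaling. Ldha, the subunit dominant in muscle, had 84.5, 81.8, 58.6 and 82.5 CPM in mid 2-cell libraries, against 3.02, 3.07 and 2.57 CPM in early 2-cell libraries (log2 fold change 4.31 ± 0.27, limma adjusted p = 2.4e-17). Ldhb, the subunit dominant in heart, fell and had 1272, 1093, 1713 and 882 CPM in mid 2-cell libraries, against 2976, 3059 and 3514 CPM in early 2-cell libraries (log2 fold change -1.40 ± 0.28, limma adjusted p = 4.0e-05). Mpc2, of the mitochondrial pyruvate carrier, had 44.9 ± 7.97 CPM at mid 2-cell and 2.48 ± 0.176 CPM at early 2-cell (log2 fold change 3.70, limma adjusted p = 1.4e-21). Pdp2, a phosphatase that activates pyruvate dehydrogenase, had 43.8 ± 5.47 CPM at mid 2-cell and 5.01 ± 0.593 CPM at early 2-cell (log2 fold change 2.90, limma adjusted p = 1.3e-09). Slc16a1, a transporter of lactate and pyruvate, had 67.1, 74.1, 50.2 and 82.6 CPM in mid 2-cell libraries, against 12.5, 16.2 and 13.3 CPM in early 2-cell libraries (log2 fold change 2.20 ± 0.28, limma adjusted p = 8.5e-09). Pdk1, a kinase that inhibits pyruvate dehydrogenase, rose (23.1 ± 2.71 CPM at mid 2-cell and 10.1 ± 0.964 CPM at early 2-cell, log2 fold change 1.12, limma adjusted p = 4.0e-04), and after median-ratio scaling its change was 0.30 and did not pass. G6pdx, which opens the pentose phosphate pathway, fell (422 ± 56.3 CPM at mid 2-cell and 957 ± 65.04 CPM at early 2-cell, log2 fold change -1.19, limma adjusted p = 0.0033).

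Of 22 genes of the tricarboxylic acid cycle and its side enzymes, 7 rose, 8 fell and 7 did not pass. After median-ratio scaling, 3 rose and 14 fell. Over all genes tested, 42.9% rose and 7.71% fell as deposited, and 25.8% and 25.3% after that scaling. Mdh2, mitochondrial malate dehydrogenase, had 64.1, 69.2, 56.9 and 69.3 CPM in mid 2-cell libraries, against 5.59, 5.69 and 5.53 CPM in early 2-cell libraries (log2 fold change 3.31 ± 0.26, limma adjusted p = 1.5e-14). Idh3g, of isocitrate dehydrogenase, had 28.7 ± 6.80 CPM at mid 2-cell and 1.29 ± 0.640 CPM at early 2-cell (log2 fold change 3.71, limma adjusted p = 3.3e-21). Fh1, fumarase, fell (8.13 ± 2.74 CPM at mid 2-cell and 27.04 ± 2.82 CPM at early 2-cell, log2 fold change -1.66, limma adjusted p = 2.4e-06). So did malic enzyme Me1 (363 ± 15.52 CPM at mid 2-cell and 801 ± 47.2 CPM at early 2-cell, log2 fold change -1.14, limma adjusted p = 2.7e-05). Adjacent enzymes of the cycle, Fh1 and Mdh2, thus changed in opposite directions.

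Maternal transcripts fell by family. Of 46 genes of oocyte-restricted families, 2 rose, 33 fell and 11 did not pass, with a median log2 fold change of -1.65 (after median-ratio scaling 1 rose and 42 fell). They took 10.7% of mid 2-cell libraries and 19.4% of early 2-cell libraries on average, and their summed level was 110845, 105896, 112975 and 97403 CPM in mid 2-cell libraries, against 214651, 181115 and 184959 CPM in early 2-cell libraries. The 12 listed Fbxw genes, F-box proteins with WD40 repeats that are made in oocytes, all fell, and their sum was 2735, 3080.0, 4714 and 2344 CPM in mid 2-cell libraries, against 54174, 35865 and 35676 CPM in early 2-cell libraries. That is 13.02-fold lower in mid 2-cell embryos. The 6 listed Oas1 genes, relatives of the antiviral oligoadenylate synthetases, all fell, and their sum was 1226, 1263, 3106 and 1106 CPM in mid 2-cell libraries, against 25191, 17834 and 17421 CPM in early 2-cell libraries, or 12.03-fold lower. Of the 4 Oog genes 3 fell and 1 did not pass, and their sum was 12182 ± 721 CPM in mid 2-cell embryos, against 23768 ± 4482 CPM in early 2-cell embryos.

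Of the 12 largest falls of named genes, 6 were Fbxw genes. Among them Fbxw20 (log2 fold change -4.51, limma adjusted p = 3.1e-16) and Fbxw22 (log2 fold change -4.38, limma adjusted p = 2.4e-16) fell the most. Fbxw26 (log2 fold change -3.89, limma adjusted p = 5.2e-15) and Fbxw15 (log2 fold change -3.87, limma adjusted p = 7.9e-12) followed. Fbxw28 (log2 fold change -3.82, limma adjusted p = 6.5e-14) and Fbxw25 (log2 fold change -3.80, limma adjusted p = 9.4e-13) were the others. Fbxw28 had 604, 651, 1152 and 466 CPM in mid 2-cell libraries, against 11541, 8559.7 and 8821 CPM in early 2-cell libraries. Fbxw14, picked after its values were seen, had 482, 541, 841 and 395 CPM in mid 2-cell libraries, against 9364, 6559 and 6638 CPM in early 2-cell libraries. Oas1h fell as well (67.5 ± 50.05 CPM at mid 2-cell and 1161 ± 392 CPM at early 2-cell, log2 fold change -4.26, limma adjusted p = 8.1e-14). Oas1e was also among the 12 (367 ± 195 CPM at mid 2-cell and 6119 ± 1752 CPM at early 2-cell, log2 fold change -4.15, limma adjusted p = 6.0e-12). In the sums of the Fbxw, Oas1 and Oog families, mid 2-cell library 3 was the highest of its group and early 2-cell library 1 the highest of its own.

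The 6 Tcl1 genes are a family of AKT coactivators on chromosome 12. None passed the test in CPM as deposited (limma), also at an unadjusted p under 0.05, whereas after median-ratio scaling 5 of the 6 passed as lower. Their sum was 44737, 43042, 40094 and 38048 CPM in mid 2-cell libraries, against 38148, 35226 and 33662 CPM in early 2-cell libraries. Tcl1 itself had 18904, 17711, 17602 and 15790.5 CPM in mid 2-cell libraries, against 11247, 14312 and 13922 CPM in early 2-cell libraries. This is a log2 fold change of 0.42 that did not pass (limma, adjusted p = 0.13), although the groups did not overlap. It passed as higher in a fit of the 2 groups alone (limma, adjusted p = 0.0059) and had the opposite sign after median-ratio scaling (-0.47). The difference between the Tcl1 and the other families was not tested. Omt2a, an oocyte gene, rose and had 8924, 8840.3, 7677 and 8266 CPM in mid 2-cell libraries, against 3435, 4227 and 4413 CPM in early 2-cell libraries (log2 fold change 1.07 ± 0.35, limma adjusted p = 0.0088), with 0.18 and no pass after median-ratio scaling. Rfpl4b, a ret finger protein-like gene, had 126, 129, 78.8 and 146 CPM in mid 2-cell libraries, against 1.27, 0.937 and 1.56 CPM in early 2-cell libraries (log2 fold change 5.72 ± 0.25, limma adjusted p = 1.4e-22). It rose although it was listed with the oocyte families.

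Rgs2, a regulator of G protein signalling that is held in the egg, had the largest fall of the genes named and lies on chromosome 1, 143999338 to 144004161. It had 93.8, 97.2, 341 and 96.9 CPM in mid 2-cell libraries, against 2825, 3312 and 4135 CPM in early 2-cell libraries (log2 fold change -4.67 ± 0.38, limma adjusted p = 5.3e-14). Rgs2 fell in every mid 2-cell library, and library 3, the highest of them, still lay under every early 2-cell library. Crabp2, a retinoic acid-binding protein, had 10.1 ± 4.62 CPM in mid 2-cell embryos, against 172 ± 24.8 CPM in early 2-cell embryos (log2 fold change -4.04 ± 0.26, limma adjusted p = 2.9e-17). Mtfr2, a mitochondrial fission regulator, had 43.02 ± 14.99 CPM in mid 2-cell embryos, against 689 ± 43.1 CPM in early 2-cell embryos (log2 fold change -4.02 ± 0.26, limma adjusted p = 7.9e-17). H1foo, the linker histone of the oocyte, fell and had 1254, 1152, 2162 and 1109.5 CPM in mid 2-cell libraries, against 3742, 4138 and 4108 CPM in early 2-cell libraries (log2 fold change -1.55 ± 0.20, limma adjusted p = 1.1e-08).

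The subcortical maternal complex is a structure at the egg cortex whose loss is known to stop mouse embryos early. Of 21 genes of the complex and of the oocyte Nlrp family, 0 rose, 15 fell and 6 did not pass. None was higher at an unadjusted p under 0.05 (limma). After median-ratio scaling, 0 rose and 21 fell. The list's sum was 18010.3, 16371, 22078 and 16788 CPM in mid 2-cell libraries, against 49811, 36742 and 40464 CPM in early 2-cell libraries. Ooep, a core protein of the complex, had 72.7, 72.4, 191 and 54.8 CPM in mid 2-cell libraries, against 538, 527 and 669 CPM in early 2-cell libraries (log2 fold change -2.72 ± 0.34, limma adjusted p = 5.2e-09). Nlrp5, also called MATER, had 121, 119, 264 and 129 CPM in mid 2-cell libraries, against 619.5, 463 and 567 CPM in early 2-cell libraries (log2 fold change -1.87 ± 0.32, limma adjusted p = 4.1e-06). Both fell, and in both mid 2-cell library 3 was the highest of its group and yet lay under all early 2-cell libraries. All 7 Nlrp4 genes and all 3 Nlrp9 genes fell. Their sums were 3282 ± 979 CPM in mid 2-cell embryos, against 16489 ± 4308 CPM in early 2-cell embryos for Nlrp4, and 3001 ± 314 CPM in mid 2-cell embryos, against 6405 ± 1494 CPM in early 2-cell embryos for Nlrp9. Among them, Nlrp9b had 182 ± 88.2 CPM at mid 2-cell and 1542 ± 472 CPM at early 2-cell (log2 fold change -3.13, limma adjusted p = 1.4e-10). Nlrp4b had 115 ± 38.98 CPM at mid 2-cell and 887 ± 164 CPM at early 2-cell (log2 fold change -2.97, limma adjusted p = 1.3e-13). Nlrp4a had 349 ± 109.5 CPM at mid 2-cell and 2183 ± 625 CPM at early 2-cell (log2 fold change -2.65, limma adjusted p = 4.6e-08).

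Secreted and surface proteins of the egg were mixed. Of 13 genes, 1 rose, 4 fell and 8 did not pass. After median-ratio scaling, 1 rose and 9 fell. For comparison, 42.9% of all genes tested rose and 7.71% fell as deposited, and 25.8% and 25.3% after that scaling. Izumo1r, the egg's sperm receptor JUNO, fell and had 15.4, 16.3, 29.1 and 17.8 CPM in mid 2-cell libraries, against 71.7, 84.6 and 82.8 CPM in early 2-cell libraries (log2 fold change -2.01 ± 0.21, limma adjusted p = 1.3e-10). Bmp15, an oocyte growth factor, fell and had 2771, 2564, 3559.5 and 2662 CPM in mid 2-cell libraries, against 6785, 5396 and 7293 CPM in early 2-cell libraries (log2 fold change -1.17 ± 0.25, limma adjusted p = 1.5e-04), with -0.51 and no pass after quantile scaling and no pass at a pseudocount of 0.1 (limma, adjusted p = 0.086). Oosp2, an oocyte secreted protein, fell as well (46.5 ± 5.24 CPM at mid 2-cell and 116 ± 21.5 CPM at early 2-cell, log2 fold change -1.30, limma adjusted p = 1.1e-05), with no pass at a pseudocount of 0.1 (limma, adjusted p = 0.058). Gdf9, a growth factor related to BMP15, had 443, 405, 503 and 401 CPM in mid 2-cell libraries, against 637, 556 and 618 CPM in early 2-cell libraries and did not pass, although the groups did not overlap. It passed as lower in a fit of the 2 groups alone (limma, adjusted p = 0.0010), after median-ratio scaling (-1.36, limma adjusted p = 3.8e-05) and without the 100 highest genes (limma, adjusted p = 0.044). The zona protein gene Zp3 had 19.9 ± 1.82 CPM at mid 2-cell and 14.5 ± 1.47 CPM at early 2-cell and did not pass either, although it passed as higher in a fit of the 2 groups alone (limma, adjusted p = 0.012). Cd9, the tetraspanin of the egg membrane, rose (74.6 ± 9.22 CPM at mid 2-cell and 23.9 ± 2.78 CPM at early 2-cell, log2 fold change 1.60, limma adjusted p = 7.5e-12).

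Machinery of maternal RNA decay was itself mixed. Of 63 genes, 36 rose, 8 fell and 19 did not pass. After median-ratio scaling, 16 rose and 22 fell. Over all genes tested, 42.9% rose and 7.71% fell as deposited, and 25.8% and 25.3% after that scaling. Btg4, which recruits CCR4-NOT to maternal RNA, had 11504, 10973, 11335 and 10575 CPM in mid 2-cell libraries, against 8373, 10177 and 11115 CPM in early 2-cell libraries, and the groups overlapped (limma, adjusted p = 0.59). After median-ratio scaling it passed as lower (-0.71, limma adjusted p = 0.013). Pabpn1l, a nuclear poly(A)-binding protein relative known to act with BTG4, had 10.5, 10.9, 15.8 and 12.5 CPM in mid 2-cell libraries, against 129, 125 and 118 CPM in early 2-cell libraries (log2 fold change -3.24 ± 0.22, limma adjusted p = 3.2e-16). Pabpn1l fell with no overlap of groups, and its difference from Btg4 was not tested. Cnot6l, a deadenylase of the complex, had 195, 218, 195 and 221 CPM in mid 2-cell libraries, against 92.7, 137 and 110.2 CPM in early 2-cell libraries (log2 fold change 0.88 ± 0.25, limma adjusted p = 0.0034). After median-ratio scaling its change was -0.01 and did not pass. Tob1, another CCR4-NOT adaptor, had 24.9 ± 2.96 CPM at mid 2-cell and 1.47 ± 0.389 CPM at early 2-cell (log2 fold change 3.40, limma adjusted p = 5.6e-15). Ythdf2, a reader of N6-methyladenosine that promotes decay, had 123 ± 17.6 CPM at mid 2-cell and 30.1 ± 1.62 CPM at early 2-cell (log2 fold change 1.99, limma adjusted p = 5.4e-12). Zfp36l2, which binds AU-rich elements, rose (3.86 ± 0.980 CPM at mid 2-cell and 0.784 ± 0.0962 CPM at early 2-cell, log2 fold change 1.43, limma adjusted p = 4.9e-04), with 0.71 and no pass after quantile scaling.

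Of 35 genes of RNA storage and translation control, 13 rose, 10 fell and 12 did not pass. After median-ratio scaling, 5 rose and 17 fell. Among all genes tested, 42.9% rose and 7.71% fell as deposited, and 25.8% and 25.3% after that scaling. The poly(A)-binding protein genes changed in opposite directions. Pabpc1, the somatic form, had 21.9, 28.5, 19.6 and 32.2 CPM in mid 2-cell libraries, against 1.47, 0.851 and 0.742 CPM in early 2-cell libraries (log2 fold change 3.71 ± 0.26, limma adjusted p = 3.9e-16) and rose. Pabpc1l, the oocyte form, fell and had 14.2, 14.2, 25.3 and 15.3 CPM in mid 2-cell libraries, against 66.6, 60.7 and 61.2 CPM in early 2-cell libraries (log2 fold change -1.85 ± 0.17, limma adjusted p = 3.5e-12). Dazl, a germ line RNA-binding protein, fell (254 ± 17.03 CPM at mid 2-cell and 1003 ± 124 CPM at early 2-cell, log2 fold change -1.97, limma adjusted p = 8.0e-08). Zar1, which acts in maternal RNA storage, fell too (34.4 ± 5.71 CPM at mid 2-cell and 105 ± 14.9 CPM at early 2-cell, log2 fold change -1.58, limma adjusted p = 4.2e-06). So did Eif4enif1, which binds the cap-binding protein (165 ± 15.7 CPM at mid 2-cell and 409.8 ± 42.03 CPM at early 2-cell, log2 fold change -1.31, limma adjusted p = 2.4e-06).

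Cell cycle genes changed in both directions between 34 and 42 h. Of 55 genes, 24 rose, 12 fell and 19 did not pass. After median-ratio scaling, 14 rose and 23 fell. Among all genes tested, 42.9% rose and 7.71% fell as deposited, and 25.8% and 25.3% after that scaling. Cdk2ap1, which binds CDK2, had 132 ± 22.2 CPM at mid 2-cell and 1.65 ± 0.924 CPM at early 2-cell (log2 fold change 5.70, limma adjusted p = 3.6e-25). Ccne1, cyclin E1, had 254, 257, 174 and 269 CPM in mid 2-cell libraries, against 5.52, 5.89 and 5.47 CPM in early 2-cell libraries (log2 fold change 5.16 ± 0.31, limma adjusted p = 5.9e-18). Cdk1, the mitotic kinase, had 232, 235, 171 and 251 CPM in mid 2-cell libraries, against 10.9, 11.6 and 11.2 CPM in early 2-cell libraries (log2 fold change 4.18 ± 0.18, limma adjusted p = 8.0e-23). The CDK-activating phosphatase gene Cdc25c rose (49.6 ± 9.21 CPM at mid 2-cell and 2.33 ± 1.07 CPM at early 2-cell, log2 fold change 3.95, limma adjusted p = 4.6e-19). The CDK inhibitor gene Cdkn1a, or p21, also rose (40.5 ± 5.83 CPM at mid 2-cell and 2.68 ± 0.473 CPM at early 2-cell, log2 fold change 3.49, limma adjusted p = 1.8e-15). Ccna2, cyclin A2, had 878 ± 24.9 CPM at mid 2-cell and 442 ± 17.03 CPM at early 2-cell (log2 fold change 0.99, limma adjusted p = 3.6e-06), with 0.10 and no pass after median-ratio scaling. Ccnb1, cyclin B1, fell and had 2301, 2128, 2519 and 2122 CPM in mid 2-cell libraries, against 5010.3, 5082 and 5288 CPM in early 2-cell libraries (log2 fold change -1.18 ± 0.24, limma adjusted p = 5.6e-05), with -0.47 and no pass after quantile scaling. Ccno, cyclin O, fell too (18.8 ± 4.55 CPM at mid 2-cell and 85.6 ± 3.30 CPM at early 2-cell, log2 fold change -2.15, limma adjusted p = 1.1e-06). Bub3, of the spindle checkpoint, fell as well (43.1 ± 6.18 CPM at mid 2-cell and 152 ± 4.92 CPM at early 2-cell, log2 fold change -1.80, limma adjusted p = 6.8e-11). Mos, the kinase of meiotic arrest, was low in both groups (3.70 ± 0.873 CPM at mid 2-cell and 4.29 ± 1.07 CPM at early 2-cell) and did not pass. It passed as lower after median-ratio scaling (-0.95, limma adjusted p = 2.0e-04) and after quantile scaling (-1.29, limma adjusted p = 6.3e-06).

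Of 46 DNA replication genes, 18 rose, 10 fell and 18 did not pass. After median-ratio scaling, 5 rose and 23 fell. Rpa2, of the single-strand binding complex, had 84.7 ± 11.04 CPM at mid 2-cell and 8.15 ± 0.689 CPM at early 2-cell (log2 fold change 3.22, limma adjusted p = 5.2e-18). Rfc3, of the clamp loader, fell (9.27 ± 3.43 CPM at mid 2-cell and 67.8 ± 5.87 CPM at early 2-cell, log2 fold change -2.79, limma adjusted p = 9.7e-16). Of 68 chromatin and DNA methylation genes, 31 rose, 10 fell and 27 did not pass. After median-ratio scaling, 15 rose and 22 fell. Beside both lists, 42.9% of all genes tested rose and 7.71% fell as deposited, and 25.8% and 25.3% after median-ratio scaling. The histone variant genes H2afz and H2afv, which encode forms of H2A.Z, rose. H2afz had 818, 846, 647 and 812 CPM in mid 2-cell libraries, against 33.3, 39.8 and 35.3 CPM in early 2-cell libraries (log2 fold change 4.39 ± 0.21, limma adjusted p = 1.4e-21). H2afv had 73.4 ± 10.02 CPM at mid 2-cell and 6.76 ± 0.579 CPM at early 2-cell (log2 fold change 3.25, limma adjusted p = 8.3e-19). Kdm5b, a demethylase of H3K4 methylation, had 71.7, 78.2, 59.4 and 82.2 CPM in mid 2-cell libraries, against 5.34, 6.44 and 6.73 CPM in early 2-cell libraries (log2 fold change 3.36 ± 0.24, limma adjusted p = 7.5e-16). Suv39h1, a methyltransferase for H3K9, had 29.997 ± 6.08 CPM at mid 2-cell and 2.03 ± 0.632 CPM at early 2-cell (log2 fold change 3.35, limma adjusted p = 2.1e-13). Zfp57, the zinc finger protein that protects imprints, fell and had 175, 156, 393 and 137 CPM in mid 2-cell libraries, against 2734, 2508 and 2842 CPM in early 2-cell libraries (log2 fold change -3.77 ± 0.30, limma adjusted p = 3.7e-14). Dppa3, also called STELLA, which protects the maternal genome from demethylation, had 6258, 6026, 6243 and 5599 CPM in mid 2-cell libraries, against 3534, 4634 and 4847 CPM in early 2-cell libraries and did not pass (limma, adjusted p = 0.098), although the groups did not overlap. It passed as higher in a fit of the 2 groups alone (limma, adjusted p = 0.0014) and after quantile scaling (limma, adjusted p = 0.018), and had the opposite sign after median-ratio scaling (-0.40).

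Genes of the Y chromosome were examined after their values were seen. Of 13 tested, 6 rose, 0 fell and 7 did not pass (limma, adjusted p under 0.05), and none was lower at an unadjusted p under 0.05. After median-ratio scaling 5 of the 13 passed as higher and 3 as lower, and after quantile scaling 5 and 2. Among all genes tested, 42.9% rose and 7.71% fell as deposited, 25.8% and 25.3% after median-ratio scaling, and 20.7% and 28.1% after quantile scaling. Eif2s3y, the Y-linked gene of an initiation factor subunit, had 11.9, 16.6, 11.6 and 14.4 CPM in mid 2-cell libraries, against 0.224, 0 and 0.0601 CPM in early 2-cell libraries (log2 fold change 3.73 ± 0.33, limma adjusted p = 5.6e-13). Uty, a Y-linked relative of a histone demethylase, had 8.42, 11.7, 9.65 and 14.9 CPM in mid 2-cell libraries, against 0.747, 0.0669 and 0.180 CPM in early 2-cell libraries (log2 fold change 3.20 ± 0.30, limma adjusted p = 5.8e-12). Zfy1 and Zfy2, zinc finger genes, were listed at 0 in all 3 early 2-cell libraries and had 2.81 to 3.94 CPM and 3.86 to 8.81 CPM in mid 2-cell libraries. Usp9y, a deubiquitinase gene, had 4.81 ± 1.44 CPM at mid 2-cell and 0.189 ± 0.164 CPM at early 2-cell (log2 fold change 2.27, limma adjusted p = 2.3e-06). Ddx3y, a helicase gene, had 0.484 ± 0.304 CPM at mid 2-cell and 0.0651 ± 0.0609 CPM at early 2-cell and did not pass, although it passed at a pseudocount of 0.1 (limma, adjusted p = 5.0e-04). Kdm5d had 97.3, 103, 96.1 and 89.1 CPM in mid 2-cell libraries, against 127, 88.9 and 91.3 CPM in early 2-cell libraries and did not pass either, and its groups overlapped. After median-ratio scaling it passed as lower (-0.95, limma adjusted p = 0.0010). At 34 h Kdm5d lay far above Eif2s3y, Uty, Zfy1 and Zfy2, and it averaged 29.4 and 16.0 CPM at 48 and 52 h. Whether its reads include those of related genes was not tested.

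The span of the genes differed between the classes. Protein-coding genes at least 2-fold higher had a median span from first to last base of 18.7 kb (quartiles 7.42 to 45.4 kb, n = 3970). It was 22.8 kb for those at least 2-fold lower (11.6 to 42.6 kb, n = 567) and 24.9 kb for those that did not pass (10.5 to 60.5 kb, n = 7019). After median-ratio scaling these medians were 13.5, 25.3 and 26.7 kb. Single-exon genes were 3.58% of those at least 2-fold higher, 1.59% of those at least 2-fold lower and 2.65% of those that did not pass. Genes are not independent replicates, and these figures describe the classes without a test.

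The groups of 48 h and 52 h, late and very late 2-cell embryos of the standard medium (3 libraries each), show where 42 h stands in the course. Zscan4f averaged 24.4, 1235, 249 and 68.3 CPM at 34, 42, 48 and 52 h. Zfp352 averaged 9.89, 488, 270.3 and 100.2 CPM at these ages. Both were highest of these 4 ages at 42 h. Obox3 averaged 40.8, 541, 521 and 60.04 CPM, and its means at 42 and 48 h differed by less than their SD in CPM as deposited. Median-ratio scaling divides CPM by 0.770 to 0.877 at 42 h and by 1.47 to 1.60 at 48 h. It would lower Obox3 at 48 h relative to 42 h. Prps1 averaged 9.69, 1349, 3087 and 2143 CPM, and Rps3 1.38, 39.3, 230.1 and 409 CPM, so for them 42 h lay on the way up. Rgs2 averaged 3424, 157, 31.2 and 12.1 CPM, and most of its fall had taken place by 42 h. H1foo averaged 3996, 1419, 112 and 69.8 CPM. Btg4 averaged 9888, 11097, 1749 and 259.8 CPM, and Tcl1 13160.2, 17502, 4054 and 1176 CPM, and both had lower mean CPM at 48 h than at 42 h.

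**Figure D5:**
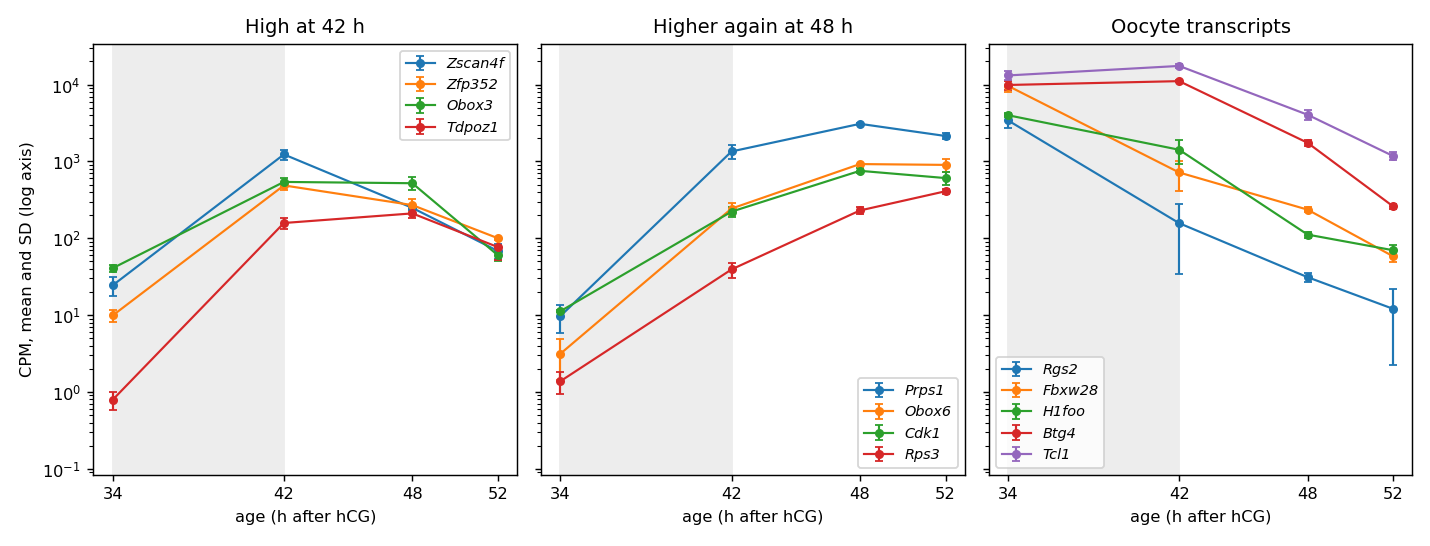
Mean CPM and SD (log axis) at 34, 42, 48 and 52 h after hCG in standard medium, with the interval from 34 to 42 h shaded and 3, 4, 3 and 3 libraries at these ages. Zscan4f and Zfp352 peak at 42 h, Prps1, Obox6, Cdk1 and Rps3 are higher still at 48 h, and Rgs2 has a lower mean CPM at 42 h than at 34 h, while the lower mean CPM of Btg4 and Tcl1 first appears at 48 h. After median-ratio scaling Btg4 was lower at 42 h than at 34 h (-0.71).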

How the data were processed

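Per the submitters' processing notes, the authors used STAR 2.6.1d and the mm10 build. The table they deposited holds CPM, with an offset of 1e-04 that was subtracted here, in 91 columns, of which 6 could not be matched to a sample and were not used. Counting and filtering are not given in the sources used here. Another 26 entries named by numbers were left out (0.046% to 0.194% of a library), and 36810 of 37368 symbols matched GENCODE vM21. Whole reads could not be recovered from the 7 libraries (75.9% to 78.5% of values of at most 20 reads lay within 0.1 of a whole number), so the count test was not run. Depth was estimated from what 1 read adds to a CPM value, and 1 CPM has a relative SD of 23.1% to 29.8% from counting alone.

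Genes above 1 CPM in at least 3 of 45 standard-medium libraries (20158) were tested on log2(CPM + 1) with limma 3.58.1 (trend, R 4.3.3), with all 12 standard groups in 1 fit and Benjamini-Hochberg adjustment at 0.05. The fit was tested on simulated data. Replicate numbers did not pair the samples. Alternatives were 3 scalings, a pseudocount of 0.1, a fit of the 2 groups alone, a fit with the replicate number as a block, all genes unfiltered and each library left out. Single library values were compared with exact permutation tests. Libraries were grouped by their labels, but the comparison, its members, the gene lists and the rule for named genes were chosen with earlier results of these data known. The rule took the 12 largest rises and 12 largest falls of at least 20 CPM without overlap of groups, the leading members of each of 25 lists, and a set of genes given by name. Of 184 genes it gave, 133 are described with their values, with 11 more chosen after their values were seen. Promoter windows come from RefSeq (GRCm38.p6), and 61.3% of tested genes have one. The position of a library between early and late 2-cell embryos and the look at Y-linked genes were added after values were seen. Alignments used Biopython 1.88.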

Additional observations from a re-analysis of the deposited data

Results flagged for a closer look

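In 25 of the 172 values examined, 1 of the 4 mid 2-cell libraries lay far from the other 3 by Dixon's test at the 95% level, where chance alone gives about 1 in 20, or 8.6. Library 3 was that library in 22 of them. It was high, in the direction of the early 2-cell libraries, for genes that fell: Rgs2 at 341 CPM, Oas1h at 142 CPM, Zfp57 at 393 CPM, Nlrp9b at 314 CPM, Ooep at 191 CPM, Nlrp5 at 264 CPM, Nlrp4a at 514 CPM, H1foo at 2162 CPM, Pabpc1l at 25.3 CPM, Ccno at 25.6 CPM, Nup88 at 182 CPM, Eif1b at 118 CPM and Obox2 at 899 CPM. It was low, again towards the early 2-cell libraries, for genes that rose: Prps1 at 934 CPM, Ccne1 at 174 CPM, Srsf7 at 95.4 CPM, Eif1a at 128 CPM, Ppat at 112 CPM, Ldha at 58.6 CPM and Crxos at 84.4 CPM. It was also low in the summed level of the cytosolic ribosomal proteins, at 1540.2 CPM, and of nucleotide synthesis, at 4009 CPM. In library 2, Zscan4c was high at 398 CPM. In library 1, Polr2a was high at 2.75 CPM and Obox5 at 9559 CPM. Library 3 was the deepest of the 7, and the part of depth in these values was not tested.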

How the results depend on the processing

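Scaling had the largest effect on the split. After median-ratio scaling 5204 genes were higher and 5106 lower (at least 2-fold, 3232 and 2612), and after quantile scaling 4169 and 5674 (at least 2-fold, 2578 and 2781). Without the 100 highest genes, 1114 were at least 2-fold lower. The cause was not tested. With each library left out in turn, 8800 to 9861 genes were called, 7384 to 8297 higher and 1258 to 1569 lower (at least 2-fold, 4853 to 5503 and 674 to 798). Replicate numbers did not pair the samples (correlations of 0.051, -0.0078 and 0.030), and with a replicate block 10059 genes were called, 8497 higher and 1562 lower. The difference in the share of the 100 highest genes was -8.23 to -10.2 percentage points with each library left out, -5.86 for the 50 highest genes and -11.4 for the 200 highest. Of 144 genes described, 120 kept their direction and call under all 14 alternatives. Signs turned after median-ratio scaling for Nfya (-0.85), Polr2c (-0.73), Polr2a (-0.0042), Zp3 (-0.42), Tcl1 (-0.47), Btg4 (-0.71), Cnot6l (-0.0055), Dppa3 (-0.40) and Ncl (-0.15). They turned after quantile scaling for Nfya (-0.76), Polr2a (-0.35) and Zp3 (-0.42), and without the 100 highest genes for Nfya (-0.22), Polr2c (-0.092) and Btg4 (-0.072). Of the genes that did not pass in CPM as deposited, a fit of the 2 groups alone called Polr2a, Zp3, Tcl1 and Dppa3 higher and Gdf9 and Obox5 lower. Median-ratio scaling called Nfya, Polr2c, Btg4, Obox5, Gdf9, Mos, Eif1ax and Kdm5d lower. Quantile scaling ended the calls of Bmp15, Cnot6l, Zfp36l2, Ccnb1, Ncl, Hspa1b and Pdk1, and called Polr2c and Dppa3 higher and Nfya, Mos and Eif1ax lower. Without the 100 highest genes Omt2a, Cnot6l and Ncl were not called. A pseudocount of 0.1 ended the calls of Oosp2, Bmp15 and Nobox. Nfya was -0.025 with the replicate block. With each library left out, Nfya ranged over -0.15 to 0.14 and Kdm5d over -0.16 to 0.096. Genes near 1 CPM are limited by counting error, and intervals that cover counting alone do not cover amplification.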
